A study of Homo sapiens with 5 samples.

Results

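Human cells build microtubules from alpha- and beta-tubulin, each encoded by several genes whose products are called isotypes. The 10 isotype genes described here are the alpha-tubulin genes TUBA1A, TUBA1B, TUBA1C and TUBA4A and the beta-tubulin genes TUBB, TUBB2A, TUBB2B, TUBB3, TUBB4B and TUBB6. They were taken by name, and all 10 were found among the 26485 genes counted in each library. The study silenced AKAP12, which encodes a scaffold protein for protein kinases A and C, and sequenced the 3′ ends of polyadenylated RNA (QuantSeq FWD kit). The 3 AKAP12-knockdown libraries came from cells given a guide RNA against AKAP12, and the 2 control libraries from cells given control guides. Every library came from SW480, an established line from a human colorectal cancer, grown in McCoy's medium and carrying dCas9-KRAB, which represses transcription where a guide directs it. RNA was taken 48 hours after seeding. The sample titles use the names shAKAP12 and shControl, which would mean short hairpin RNAs, so the labels disagree on the silencing method. Nor do they say whether a group was 1 clone, or whether its replicates were grown separately. A p-value here thus reflects the spread between libraries, which may be technical.

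One alpha- and one beta-tubulin molecule form the heterodimer that is added to and lost from microtubule ends. The isotypes of a family share most of their sequence and differ chiefly in the acidic tail at the end of the protein, where enzymes remove or add the last tyrosine and add glutamate or glycine chains, and where many motor and other microtubule-binding proteins make contact. Cells also tune the amount of tubulin: when free heterodimer is plentiful, the factor TTC5 recognises the first residues of tubulin as it is being made and directs its mRNA to decay through the CCR4-NOT complex. In epithelial and cancer cells TUBA1B, TUBA1C, TUBB and TUBB4B are the usual main isotypes, whereas TUBA1A, TUBB2A, TUBB2B and TUBB3 are known best from neurons.

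The coding ends of the beta-tubulin genes that the results turn on are shown first, because these bases encode the tail. Each sequence is the last 21 codons of the coding strand, 63 bases with the stop codon, from the GENCODE release 29 transcript (GRCh38). Capitals mark the glutamate codons GAA and GAG.
TUBB (chr6:30724335-30724397, plus strand): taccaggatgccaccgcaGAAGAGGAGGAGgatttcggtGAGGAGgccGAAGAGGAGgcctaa
TUBB2A (chr6:3153863-3153925, minus strand): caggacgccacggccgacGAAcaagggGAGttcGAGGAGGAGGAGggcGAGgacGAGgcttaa
TUBB2B (chr6:3224751-3224813, minus strand): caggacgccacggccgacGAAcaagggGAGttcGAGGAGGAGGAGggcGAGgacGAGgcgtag
TUBB3 (chr16:89935742-89935804, plus strand): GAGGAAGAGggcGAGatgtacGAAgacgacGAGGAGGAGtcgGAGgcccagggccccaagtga
TUBB4B (chr9:137243494-137243556, plus strand): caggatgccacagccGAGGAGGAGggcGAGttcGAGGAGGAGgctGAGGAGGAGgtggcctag

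Over the 6 beta genes these ends held 7 to 10 glutamate codons, with 10 in TUBB4B. The ends of TUBB2A and TUBB2B were 96.8% identical: the last codon was GCT in TUBB2A and GCG in TUBB2B, and the stop codon TAA in TUBB2A and TAG in TUBB2B. Over the whole coding sequence the alpha genes were 84.4% to 97.2% identical in pairs, the beta genes 80.9% to 98.1%, and an alpha and a beta gene 52.9% to 56.0%. The closest pair was TUBB2A and TUBB2B, at 98.1%. At the start of the coding sequence, where autoregulation reads the new chain, TUBA1A, TUBA1B and TUBA1C shared the first 4 codons atgcgtgagtgc, and TUBA4A had atgcgtgaatgc. TUBB and TUBB4B shared atgagggaaatc, TUBB3 and TUBB6 shared atgagggagatc, TUBB2A had atgcgcgagatc and TUBB2B atgcgtgagatc.

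The 3 knockdown libraries held 6890868 to 9311026 counts, and control 1 and control 2 held 4935096 and 8670141. Control 1 stood apart: the Pearson correlation of log2 levels over the tested genes was 0.98 to 0.983 between knockdown libraries, 0.916 to 0.935 between a knockdown library and control 2, 0.792 to 0.81 between a knockdown library and control 1, and 0.9 between the controls. Short non-coding RNAs took 0.622% to 0.909% of the counts in the knockdown libraries, against 8.66% in control 1 and 1.71% in control 2, and TERT took 0.0451% to 0.249% in the knockdown libraries, against 7.43% and 3.54% in the controls. The 10 tubulin genes together took 0.652%, 0.624% and 0.583% of the counts in knockdown libraries 1, 2 and 3, against 0.305% in control 1 and 0.602% in control 2. AKAP12 itself, the targeted gene, was at 1159, 1063 and 1008 CPM in the knockdown libraries, against 2870 and 1550 CPM in the controls, where CPM is the count scaled to a common library size with TMM factors. Its log2 fold change was -1.04 (SE 0.31), with an edgeR adjusted p of 0.0513 (quasi-likelihood test, Benjamini-Hochberg adjustment over all genes tested). That adjusted p was just over the threshold of 0.05. The log2 fold change was -0.52 without control 1 and -1.42 without control 2. Summed over marker lists, colorectal epithelial genes (EPCAM, keratins and others) were at 1353 to 1609 CPM in the knockdown libraries and 1034 and 1542 CPM in the controls, and neuronal genes at 19.1 to 24.0 CPM in the knockdown and 11.8 and 15.5 CPM in the controls. Stromal genes were at 433.8 to 497.6 CPM in the knockdown and 333.6 and 438.6 CPM in the controls, and blood cell genes at 77.8 to 96.7 CPM in the knockdown and 76.2 and 107.6 CPM in the controls. No gene of these 4 lists was at 0 in every library. Their part in the results below was not tested, and in bulk RNA fewer cells with a transcript and less of it per cell cannot be told apart.

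The alpha-tubulin of SW480 was mostly TUBA1B and TUBA1C, whatever the group. Divided by annotated exon length, TUBA1B made up 71.0%, 70.2% and 72.4% of the summed alpha genes in the knockdown libraries, against 74.6% and 68.1% in the controls. TUBA1C made up 23.2%, 24.0% and 21.5% in the knockdown, against 15.4% and 24.4% in the controls. TUBA4A followed at 5.24% to 5.47% in the knockdown and 7.93% and 7.0% in the controls, and TUBA1A was the least used, at 0.548% to 0.627% in the knockdown and 2.0% and 0.572% in the controls. This order was the same in all 5 libraries, and no neighbours in it overlapped.

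Among the beta genes TUBB4B led per exon length in every library, with 40.8%, 37.7% and 39.9% of the summed beta genes in the knockdown against 62.4% and 51.5% in the controls. TUBB came second, with 21.5%, 25.4% and 25.6% in the knockdown against 27.0% and 18.0% in the controls. TUBB2B was at 12.5%, 11.4% and 8.0% and TUBB6 at 11.8%, 10.4% and 10.7% in the knockdown, so per exon length these 2 overlapped. On the same scale TUBB2A, at 7.14%, 8.76% and 9.23%, overlapped TUBB2B but not TUBB3, which was lowest at 6.28%, 6.3% and 6.6%. In control 1, TUBB2A, TUBB2B and TUBB3 were each below 1%, at 0.722%, 0.696% and 0.671%, and in control 2 they were at 2.1%, 7.57% and 3.18%. Reads of a 3′ end library are not spread along the transcript, so division by length is not neutral either. By plain counts TUBB was first among the beta genes in the 3 knockdown libraries, and TUBB4B in both controls. TUBB6 was then wholly above TUBB2B in the knockdown, at 17.6%, 15.3% and 15.7% against 11.4%, 10.2% and 7.21%. TUBB2A, at 5.66%, 6.84% and 7.22% of the counts, overlapped TUBB3, at 5.7%, 5.62% and 5.91%. The order of these 4 genes thus depended on the division by length.

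**Figure D1:**
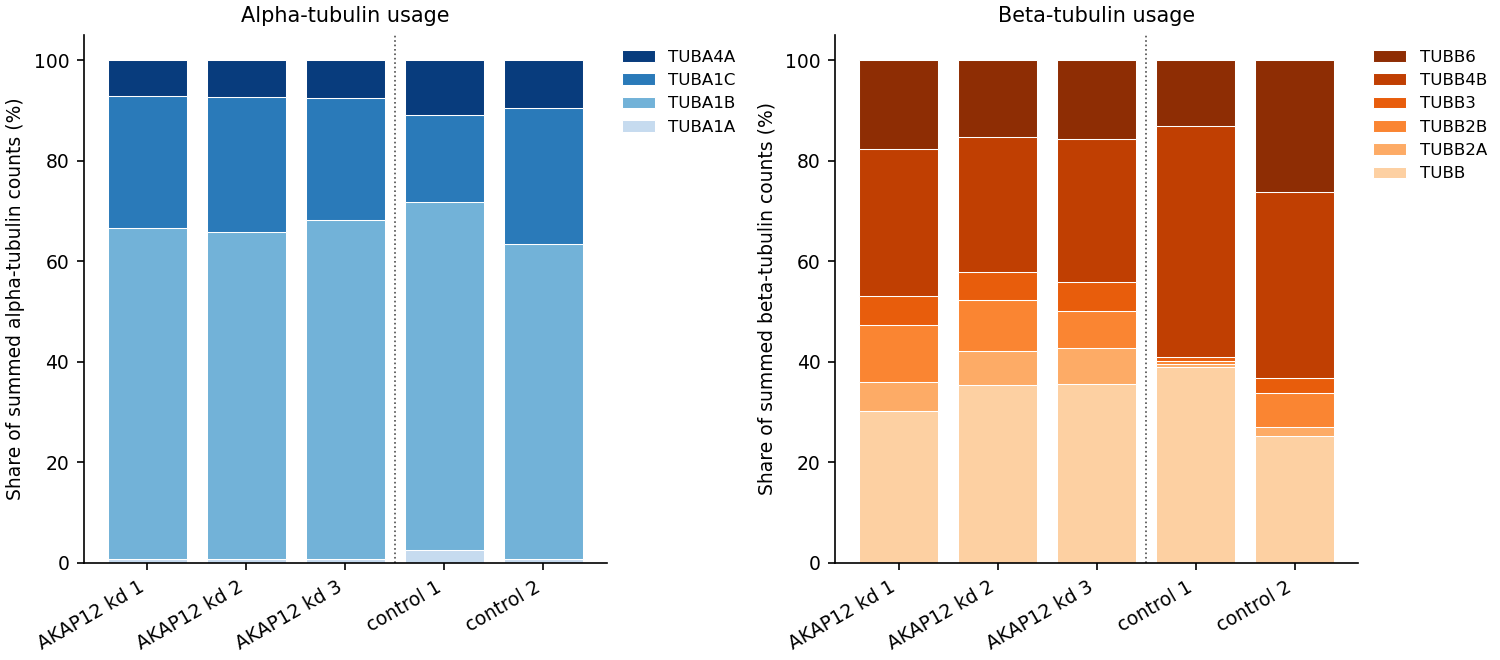
Share of each gene in the summed counts of the alpha-tubulin genes (left panel) and of the beta-tubulin genes (right panel), in percent and not divided by length, with 1 bar for each library, AKAP12-knockdown libraries left of the dotted line and controls right of it. TUBA1B fills most of every alpha bar, and TUBB2A, TUBB2B and TUBB3 are thin slices in control 1.

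Tests across all genes were made with edgeR on the 14536 genes that passed the filter on low counts, and all 10 tubulin genes passed it. The test called 22.6% of all tested genes, 11.2% as higher and 11.4% as lower in the knockdown. Of the 10 tubulin genes it called 2, or 20.0%, a share near that background: TUBB2A rose and TUBB4B fell. None of the 4 alpha genes was called by edgeR, although 1 (TUBA1B) had an unadjusted p under 0.05, and DESeq2 called that same 1, with 30.7% of all tested genes. limma-voom, which called 21.1% of all tested genes, called 0 of the 4, with 2 at an unadjusted p under 0.05. The median log2 fold change was 0.64 over the 10 genes and 0.036 over all tested genes. Over the 10 genes it was 0.185 without control 1 and 1.6 without control 2, against 0.0207 and 0.116 over all tested genes. The 2 groups did not overlap in 7 of the 10 genes, 5 higher and 2 lower in the knockdown, against 60.1% of all tested genes (31.6% higher, 28.5% lower).

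**Figure D2:**
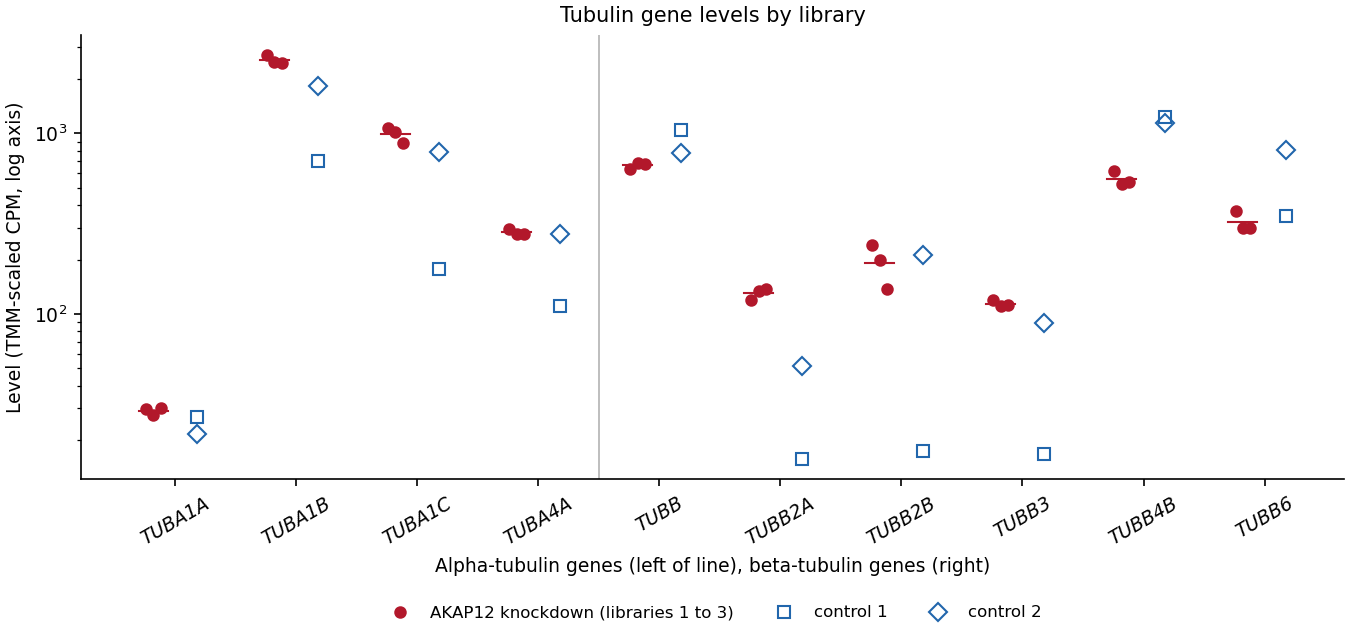
Level of each tubulin gene in TMM-scaled CPM on a log axis, with 1 point for each library, knockdown (filled circles, mean as a line) left of control (open square for control 1, open diamond for control 2) for each gene. In TUBB2A all 3 knockdown libraries lie above both controls, in TUBB4B all 3 lie below, and control 1 is far under the other libraries in TUBA1C, TUBB2B and TUBB3.

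TUBB2A, on chromosome 6 from 3153666 to 3157549 (hg38, minus strand), encodes a beta-tubulin of neural tissue. Its level was 118.7, 133.7 and 137.0 CPM in the knockdown libraries, against 15.68 and 51.15 CPM in the controls. All 3 knockdown libraries were above both controls. The fitted level was 3.83-fold higher in the knockdown, a log2 fold change of 1.94 (SE 0.47) with an edgeR adjusted p of 0.0323. It was 1.34 without control 1 and 3.04 without control 2. In such a fit the lone control is assumed to vary like the knockdown libraries, so no call is given. In the authors' deposited table the log2 fold change of TUBB2A was 1.94, with an adjusted p of 0.000387. Of the 50-base words in the last 500 bases of its transcript, 56.1% also occur in transcripts of other loci, TUBB2B among them, and reads that match several places were not counted under the authors' command.

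TUBB4B, on chromosome 9 from 137241259 to 137243707 (plus strand), encodes a widely expressed beta-tubulin that is also a part of cilia. It was at 615.3, 521.9 and 537.9 CPM in the knockdown libraries, against 1229 and 1139 CPM in the controls, which lay close together for this gene. In the fit TUBB4B was 2.12-fold lower with the knockdown, a log2 fold change of -1.08 (SE 0.21) with an edgeR adjusted p of 0.0214, and it was -1.03 without control 1 and -1.14 without control 2. In the authors' deposited table TUBB4B had a log2 fold change of -1.1 and an adjusted p of 8.67e-05. With any 1 of the 3 knockdown libraries left out, edgeR called none of the 14215 to 14324 genes tested, although 1874 to 2044 higher and 1900 to 2065 lower genes had an unadjusted p under 0.05. TUBB2A (adjusted p 0.108 to 0.145) and TUBB4B (adjusted p 0.101 to 0.135) were then among these.

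The TUBB4B count can hold reads of a second gene. Its last exon shares 125 bases with FAM166A, a gene on the opposite strand, and the authors' command counted a read for every gene it overlapped, without regard to strand. These are the last 125 bases of TUBB4B, where reads from the 3′ end of TUBB4B RNA can lie. Such reads count for both genes. FAM166A had 4727, 2717 and 3195 counts in the knockdown libraries, against 4937 and 8949 counts in the controls. If all of these reads lay in the shared bases, they would make up 78.7%, 69.7% and 73.0% of the TUBB4B count in the knockdown, against 98.4% and 90.1% in the controls. The fewest reads that can lie elsewhere in TUBB4B were 1283, 1180 and 1180 in the knockdown, against 81 and 979 in the controls. On the CPM scale these were 131.4, 158.0 and 145.1 in the knockdown, against 19.84 and 112.3 in the controls, so the groups stood in the opposite order to the whole count. The log2 fold change of this remainder was 1.12 (edgeR adjusted p 0.221). The remainder is an extreme lower bound, which can leave out reads of TUBB4B itself. FAM166A was also called lower, at a log2 fold change of -1.43 with an edgeR adjusted p of 0.0164, but its count can hold the same shared reads. Which of the 2 genes a read in the shared bases belongs to, and how many reads of either gene lie there, cannot be told apart in the counts.

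**Figure D3:**
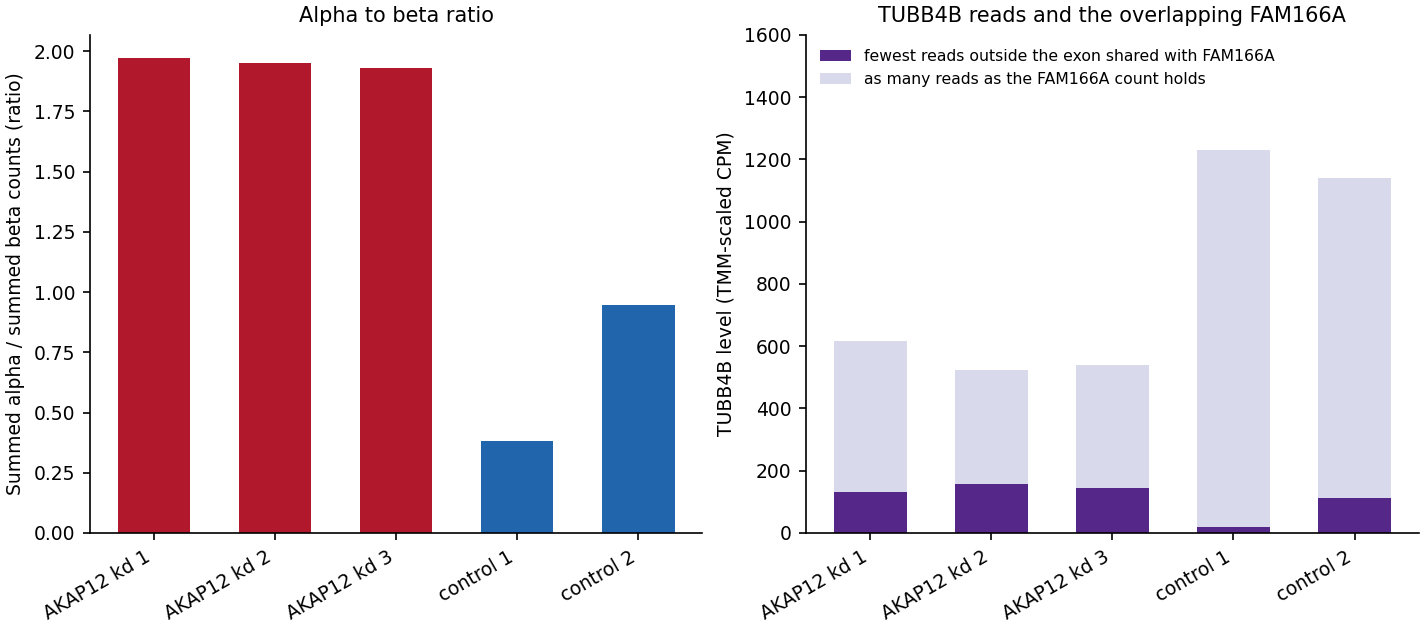
Left, summed counts of the 4 alpha genes divided by those of the 6 beta genes in each library (bars from 0, AKAP12-knockdown libraries left of the controls). Right, the TUBB4B level in TMM-scaled CPM in each library, split into the fewest reads that can lie outside the exon shared with FAM166A (dark) and as many reads as the FAM166A count holds (light): the dark part is smallest in control 1, at 19.84 CPM, where the whole bar is tallest.

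TUBA1B, on chromosome 12 from 49127784 to 49131521 (minus strand), is the main alpha-tubulin gene of dividing cells and had the highest level per exon length of the 10 genes in every library but control 1. It was at 2720, 2478 and 2469 CPM in the knockdown, against 704.7 and 1823 CPM in the controls. The knockdown libraries were above both controls, but the controls differed 2.59-fold between themselves. The log2 fold change was 1.02 (SE 0.41), with an edgeR adjusted p of 0.115. DESeq2 gave 0.995 with an adjusted p of 0.047, and in the authors' deposited table, which calls 25.3% of its genes, TUBA1B had 1.01 with an adjusted p of 0.0477, both just past the threshold. In edgeR the log2 fold change was 0.49 without control 1 and 1.85 without control 2. Of the 50-base words in its last 500 bases, 50.3% also occur at other loci, TUBA1A and TUBA1C among them, the largest such share after TUBB2A. In TUBA1A 131 of 451 such words were shared, and the share was 22.8% in TUBB4B, 21.5% in TUBB3, 15.5% in TUBA1C and 0 in the remaining 4 genes.

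TUBA1C lies near TUBA1B on chromosome 12 (49227926 to 49273338, plus strand), with TUBA1A between them. It encodes a closely related alpha-tubulin found in many tissues. It was at 1076, 1024 and 889.0 CPM in the knockdown, against 176.4 and 789.8 CPM in the controls. Control 2 was close to the knockdown libraries, and control 1 was 4.48-fold below control 2. The log2 fold change was 1.04 (SE 0.57, edgeR adjusted p 0.214). It was 0.34 without control 1 and 2.49 without control 2. The annotated TUBA1C transcript runs 1265 bases past the end of the counted exons, so reads of its 3′ end beyond them are not in the count.

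TUBA1A, also on chromosome 12 (49184795 to 49189324, minus strand), is the alpha-tubulin of young neurons and had the lowest level per exon length of the 10 genes in every library except control 1. It was at 29.69, 27.46 and 30.24 CPM in the knockdown, against 26.7 and 21.68 CPM in the controls. All 3 knockdown libraries were just above both controls, at a log2 fold change of 0.27 with an SE of 0.22 and an adjusted p of 0.377 in edgeR. Of the 10 genes, TUBA1A and TUBB were the only ones besides TUBB4B in which control 1 was above control 2.

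TUBA4A, on chromosome 2 from 219249711 to 219254608 (minus strand), was at 297.0, 276.2 and 276.0 CPM in the knockdown, against 110.7 and 277.2 CPM in the controls. Control 2 lay among the knockdown libraries, so the groups overlapped. The log2 fold change was 0.54 (SE 0.37, edgeR adjusted p 0.313), and it was 0.03 without control 1 and 1.35 without control 2. An exon of TUBA4A shares 627 bases with STK16, a kinase gene on the opposite strand. At most 45.5%, 44.0% and 45.5% of its reads could lie there in the knockdown, against 100% and 65.9% in the controls. The fewest reads that can lie elsewhere came to 162, 154.7 and 150.5 CPM in the knockdown, against 0 and 94.51 CPM in the controls. The log2 fold change of this extreme lower bound was 1.69 (edgeR adjusted p 0.373).

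TUBB, on chromosome 6 from 30720201 to 30725426 (plus strand), encodes the beta-tubulin of most dividing cells. It was at 634.5, 689.6 and 674.8 CPM in the knockdown, against 1042 and 779.0 CPM in the controls. The knockdown libraries were below both controls, at a log2 fold change of -0.45 with an SE of 0.22 and an adjusted p of 0.179 in edgeR. It was -0.22 without control 1 and -0.65 without control 2. The gene is also annotated on 7 other sequences in the files, and whether those sequences were in the alignment index is not given in the sources used here.

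TUBB2B, beside TUBB2A on chromosome 6 (3224261 to 3227734, minus strand), encodes a beta-tubulin of the developing brain. It was at 239.3, 200.1 and 136.7 CPM in the knockdown, against 17.39 and 212.2 CPM in the controls. The controls differed 12.2-fold, the widest gap of the 10 genes, and control 2 lay among the knockdown libraries. The log2 fold change was 0.73 (SE 0.85, edgeR adjusted p 0.546). It was -0.14 without control 1 and 3.46 without control 2, so its sign rested on control 1. The knockdown libraries themselves spread widely, at 192.0 ± 51.8 CPM (SD, n = 3).

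TUBB3, on chromosome 16 from 89922009 to 89936097 (plus strand), encodes class III beta-tubulin, a marker of neurons that is also made in many carcinomas. It was at 119.5, 110.0 and 112.1 CPM in the knockdown, against 16.66 and 88.54 CPM in the controls. The knockdown libraries were close together and above both controls, at a log2 fold change of 1.10 with an SE of 0.60 and an adjusted p of 0.212 in edgeR. It was 0.37 without control 1 and 2.77 without control 2.

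TUBB6, on chromosome 18 from 12307669 to 12329825 (plus strand), encodes a divergent beta-tubulin known for destabilising microtubules when in excess. It was at 369.5, 299.9 and 298.5 CPM in the knockdown, against 349.3 and 809.4 CPM in the controls. Control 1 lay among the knockdown libraries and control 2 stood 2.32-fold above it. The log2 fold change was -0.85 (SE 0.36, edgeR adjusted p 0.123). It was -1.32 without control 1 and -0.12 without control 2. An exon shares 638 bases with AFG3L2 on the opposite strand, and at most 36.0%, 44.3% and 45.2% of TUBB6 reads could lie there in the knockdown, against 30.4% and 15.7% in the controls. The annotated TUBB6 transcript ends 3206 bases short of the end of the counted gene.

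**Figure D4:**
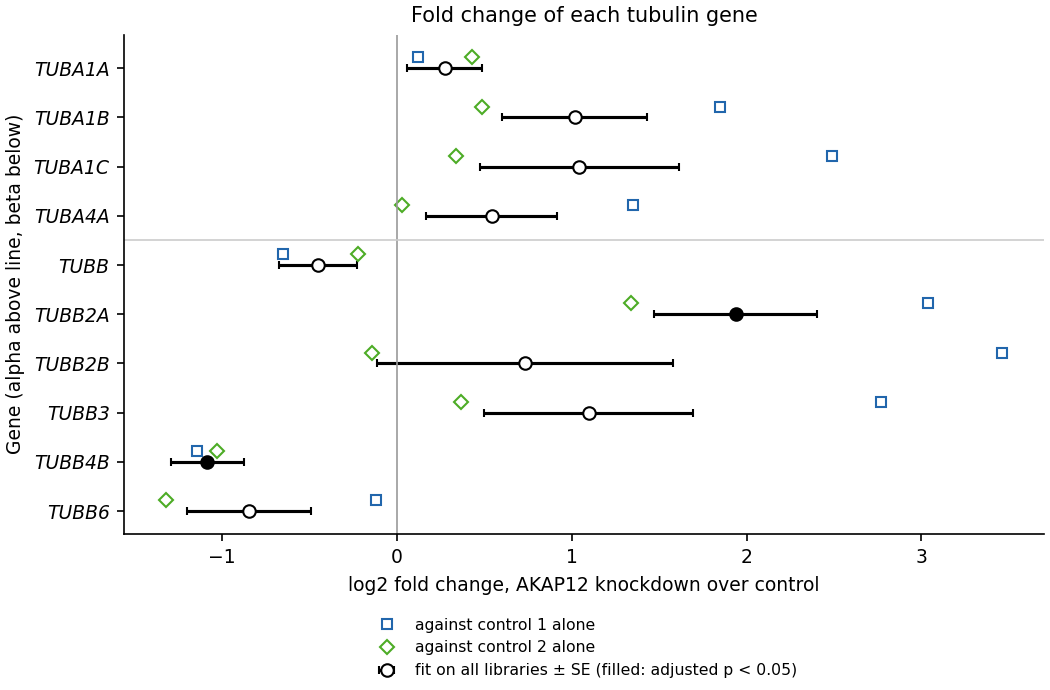
log2 fold change of each tubulin gene, AKAP12 knockdown over control, with its SE (circles with bars, filled where the edgeR adjusted p was under 0.05), and the value against control 1 alone (squares) and control 2 alone (diamonds). The 2 values lie close together for TUBB4B (-1.14 and -1.03) and far apart for TUBB2B (3.46 and -0.14).

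The fold changes against each control alone differed by a median of 1.34 on the log2 scale over the 10 genes, against 0.66 over all tested genes. The sign was the same against both controls for 9 of the 10 genes, all but TUBB2B, against 75.7% of all tested genes.

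The summed alpha genes stood higher and the summed beta genes lower in the knockdown, though with 3 libraries against 2 the exact permutation test of a sum could not pass the threshold. The alpha sum was 4123, 3806 and 3664 CPM in the knockdown, against 1019 and 2911 CPM in the controls. The beta sum was 2097, 1955 and 1897 CPM in the knockdown, against 2670 and 3079 CPM in the controls. So the alpha sum was above both controls in all 3 knockdown libraries and the beta sum below both. The mean log2 difference was 1.16 for the alpha sum and -0.53 for the beta sum, each with p = 0.1 in a two-sided exact permutation test. That is the smallest p that 3 libraries against 2 allow. After Benjamini-Hochberg adjustment it was 0.133, over 4 measures each taken with and without the genes whose exons overlap another gene. The alpha sum was 0.41 above the control without control 1 and 1.92 above it without control 2. All 10 genes summed to 6220, 5761 and 5561 CPM in the knockdown, against 3688 and 5990 CPM in the controls, and these groups overlapped.

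The count ratio of alpha to beta was 1.97, 1.95 and 1.93 in the knockdown, against 0.382 and 0.946 in the controls. Divided by exon length the ratio was 2.31, 2.32 and 2.3 in the knockdown, against 0.436 and 1.1 in the controls. The knockdown libraries agreed closely, at 1.95 ± 0.0176 (SD, n = 3), and both controls were lower, by a mean log2 difference of 1.70 (exact permutation p = 0.1, adjusted p 0.133). The difference was 1.04 without control 1 and 2.35 without control 2. Without the 3 genes whose exons overlap another gene, the beta sums were 1112, 1133 and 1061 CPM in the knockdown, against 1091 and 1131 CPM in the controls. The mean log2 difference of these remaining 4 beta genes together was -0.01 (exact permutation p = 0.9), with TUBB lower and TUBB2A and TUBB3 higher in every knockdown library than in both controls. The ratio without these genes was 3.44, 3.11 and 3.19 in the knockdown, against 0.832 and 2.33 in the controls, and stayed higher in every knockdown library.

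Within the beta family TUBB4B had a lower share of the counts in the knockdown, and TUBB2A, TUBB2B and TUBB3 higher shares. TUBB4B took 29.3%, 26.7% and 28.4% of beta counts in the knockdown, against 46.0% and 37.0% in the controls, a difference of -13.4 percentage points. TUBB2A took 5.66%, 6.84% and 7.22% in the knockdown, against 0.587% and 1.66% in the controls. TUBB3 took 5.7%, 5.62% and 5.91% in the knockdown, against 0.624% and 2.88% in the controls. These 3 shares did not overlap between groups and each had the smallest possible exact permutation p of 0.1 (adjusted p 0.25 over the 10 genes). TUBB2B was also above both controls, at 11.4%, 10.2% and 7.21% in the knockdown against 0.651% and 6.89% in the controls (exact permutation p = 0.2, adjusted p 0.333). The count ratio of TUBB4B to TUBB2A was 5.19, 3.9 and 3.93 in the knockdown, against 78.4 and 22.3 in the controls. With the overlapping genes TUBB4B and TUBB6 left out of the family, TUBB2A took 10.7%, 11.8% and 12.9% in the knockdown, against 1.44% and 4.52% in the controls, and TUBB3 took 10.7%, 9.7% and 10.6% in the knockdown, against 1.53% and 7.83% in the controls. TUBB then took less in every knockdown library, at 57.1%, 60.8% and 63.6%, against 95.4% and 68.9% in the controls, and the TUBB2B shares overlapped.

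Within the alpha family the shares differed less. TUBA4A took 7.2%, 7.26% and 7.53% of alpha counts in the knockdown, against 10.9% and 9.52% in the controls, and was below both (exact permutation p = 0.1, adjusted p 0.25). Its counts can hold reads of STK16, most of all in the controls, so a lower share of TUBA4A itself cannot be told from them. TUBA1B differed by 0.253 percentage points, at 66.0%, 65.1% and 67.4% in the knockdown against 69.2% and 62.6% in the controls, with both groups overlapping. TUBA1C took 26.1%, 26.9% and 24.3% in the knockdown, against 17.3% and 27.1% in the controls. The 95% Wilson interval of a share, which covers counting error only, reached at most 1.4 percentage points to either side.

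The other tubulin genes were rare. Of 13 further genes in the files 6 passed the filter and 3 (TUBA3E, TUBAL3 and TUBB8) had no count in any library, where a count of 0 allows up to 0.307 to 0.402 CPM in the knockdown libraries and 0.735 and 0.344 CPM in the controls. Other alpha genes added at most 0.168% to the alpha counts of a library, and other beta genes at most 0.314% to the beta counts. TUBG1, the gamma-tubulin of nucleation sites, had the highest counts of these, at 117.2, 105.5 and 108.4 CPM in the knockdown against 9.31 and 89.1 CPM in the controls, a log2 fold change of 1.14 with an adjusted p of 0.294 in edgeR. For TUBG1 it was 0.311 without control 1 and 3.56 without control 2. TUBE1, an epsilon-tubulin of centrioles, was at 6.86, 6.56 and 9.84 CPM in the knockdown against 3.43 and 2.75 CPM in the controls, a log2 fold change of 1.34, and passed the threshold (edgeR adjusted p 0.045). Under limma-voom TUBE1 missed it, at an adjusted p of 0.0559. Its fold change fitted with GC offsets was 0.861, not called by edgeR (adjusted p 0.135). With the replicate number as a block TUBE1 was not called either (edgeR adjusted p 0.294). TUBD1, the delta-tubulin gene, came next at 0.98, just outside the threshold (edgeR adjusted p 0.0501). TUBG2, a near-identical copy of TUBG1 that may share its reads, and TUBB1 were at 4.18 to 9.21 CPM in the knockdown and 2.45 to 9.86 CPM in the controls, with no call. TUBE1 and TUBG1 also share 78 and 88 exon bases with FAM229B and FAM134C on the opposite strand.

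Genes that fold, degrade, modify, bind or nucleate tubulin were read from lists of known function, and edgeR called 14.3% to 33.3% of the tested members of a list, against 22.6% of all tested genes. As for the tubulin genes, no call in these lists remained with any 1 knockdown library left out, nor with the replicate number as a block. Of 21 folding genes 4 rose and 3 fell, with a median log2 fold change of 0.37. TBCD, the cofactor that holds beta-tubulin while the heterodimer forms, fell: it was at 57.95, 59.06 and 63.32 CPM in the knockdown, against 269.0 and 165.4 CPM in the controls, a log2 fold change of -1.85 with an adjusted p of 0.0136 in edgeR. CCT4, a subunit of the CCT chaperonin that folds new tubulin, rose: it was at 434.6, 408.5 and 468.8 CPM in the knockdown, against 44.34 and 156.4 CPM in the controls, a log2 fold change of 2.12 with an adjusted p of 0.0318 in edgeR. A pair of prefoldin subunits moved in opposite directions, VBP1 up by 1.38 (edgeR adjusted p 0.0209) and PFDN5 down, at -1.67 (edgeR adjusted p 0.0186). With GC offsets 2 folding genes rose and 2 fell. The median of the folding genes was 0.274 without control 1 and 0.419 without control 2, against 0.0207 and 0.116 over all tested genes.

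Of the 7 autoregulation genes 1 was called, and their median log2 fold change was -0.435. It was CNOT7, a deadenylase of the CCR4-NOT complex, at 214.3, 184.8 and 203.1 CPM in the knockdown against 364.7 and 363.3 CPM in the controls, and it fell, at a log2 fold change of -0.86 with an adjusted p of 0.0255 in edgeR. SCAPER, which links TTC5 to that complex, was at -0.55, CNOT11 at -0.78 and CNOT10 at 0.67, all with an edgeR adjusted p over the threshold (0.117, 0.0869 and 0.0613). With library size only CNOT7 had an edgeR adjusted p of 0.055 and no gene of the list was called. The median of the list was -0.205 without control 1 and -0.471 without control 2.

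Of 20 enzymes that modify tubulin 2 rose and 3 fell, with a median log2 fold change of -0.34. ATAT1, which acetylates alpha-tubulin, rose by 1.66, although at only 5.73, 7.10 and 6.76 CPM in the knockdown against 1.23 and 2.64 CPM in the controls (edgeR adjusted p 0.0378). VASH1, which removes the last tyrosine of alpha-tubulin, fell at -1.03 (edgeR adjusted p 0.033). TPGS2, a part of the polyglutamylase complex, fell at -0.89 (edgeR adjusted p 0.0319). AGBL5, which trims glutamate from the tail, rose by 1.45 (edgeR adjusted p 0.0437). AGBL5 shares 149 exon bases with OST4, VASH1 shares 1044 with LOC100506603, and TPGS2 shares 35 and 80 with FHOD3 and KIAA1328, so their counts too can hold reads of a neighbour. With library size only 1 gene of the list rose and 0 fell, and the edgeR adjusted p was 0.0838 for VASH1, 0.0827 for TPGS2 and 0.0605 for AGBL5. The median of the modifying enzymes was -0.114 without control 1 and -0.199 without control 2. AGBL5 was at 0.943 without control 1 and 2.28 without control 2.

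Of 29 genes for microtubule-associated and severing proteins 2 rose and 4 fell, with a median log2 fold change of -0.15. MAP1S, a microtubule-associated protein, fell at -1.39 (edgeR adjusted p 0.0214), MAPT, which encodes tau, at -1.22 (edgeR adjusted p 0.0242), and NUMA1, which anchors spindle poles, at -0.997 (edgeR adjusted p 0.0335). With GC offsets the edgeR adjusted p was 0.058 for MAP1S and 0.0693 for NUMA1. The median of this list was -0.118 without control 1 and -0.303 without control 2. Of 22 nucleation genes 2 rose and 4 fell, with a median of -0.32. TUBGCP4, a part of the gamma-tubulin ring complex, fell at -0.99 (edgeR adjusted p 0.0316), and PCNT, the centrosomal scaffold pericentrin, at -0.87 (edgeR adjusted p 0.0384). MZT2A and MZT1 encode small partners of the ring complex: MZT2A fell at -0.91 (edgeR adjusted p 0.0252) and MZT1 rose by 1.19 (edgeR adjusted p 0.0364). Reads of MZT2A may be split with its near-identical copy MZT2B. MZT1 shares 52 exon bases with BORA, and NUMA1 shares up to 2432 with a neighbour. With library size only 2 nucleation genes rose and 0 fell, with an edgeR adjusted p of 0.0637 for MZT2A, 0.0565 for TUBGCP4 and 0.0592 for PCNT. With GC offsets 0 rose and 2 fell, MZT1 was at 0.57 (edgeR adjusted p 0.226) and PCNT had an edgeR adjusted p of 0.0658. With the stricter filter 2 were called higher and 7 lower. Without control 1 the median of the nucleation genes was -0.261, and without control 2 it was -0.371.

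**Figure D5:**
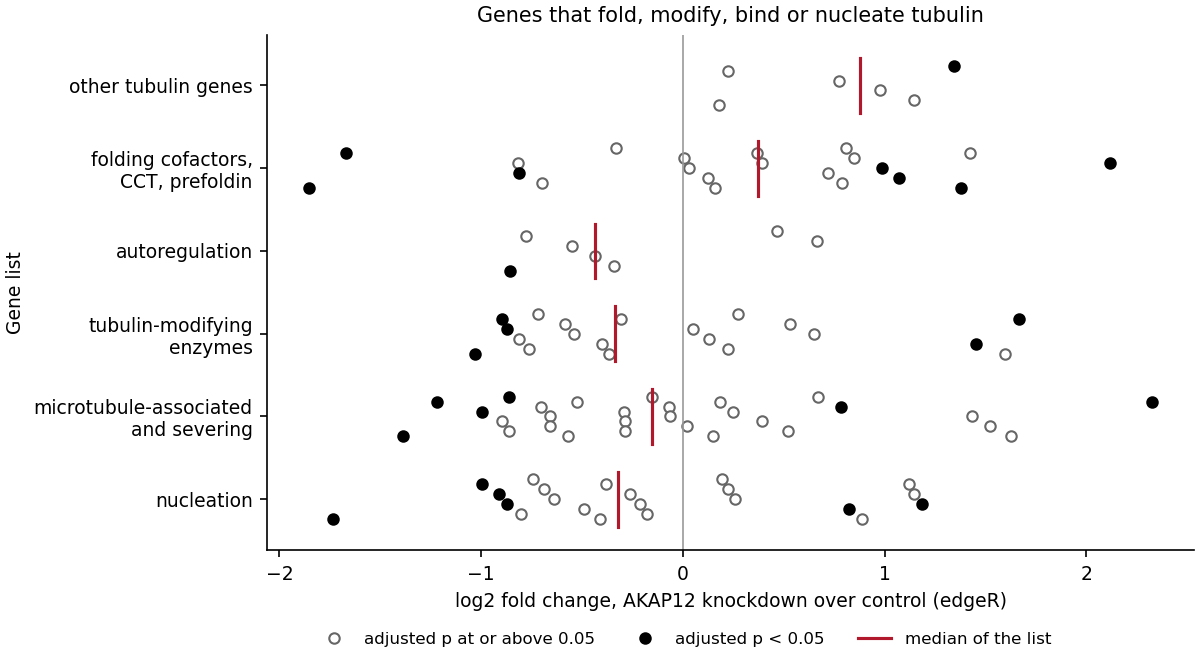
log2 fold change, AKAP12 knockdown over control, of each tested gene in 6 lists of tubulin-related genes, filled where the edgeR adjusted p was under 0.05, with the median of each list as a vertical line. Filled points stand on both sides of 0 in 4 of the lists.

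The genes whose level followed the summed alpha-tubulin most closely over the 5 libraries were sought among 5231 genes whose log2 CPM averaged 5 or more, by the root mean square distance of centred log2 levels. Among the nearest were TMEM106C (distance 0.057) and FBXO7 (0.0592). TMEM106C was at 95.83, 87.86 and 91.1 CPM in the knockdown, against 24.74 and 74.43 CPM in the controls. The nearest to the summed beta-tubulin were PLCG1-AS1 (0.0362), MRPS12 (0.0444) and EZR (0.0453). EZR, which encodes the membrane linker ezrin, was at 356.3, 330.3 and 300.6 CPM in the knockdown, against 464.7 and 510.0 CPM in the controls. With 5 libraries, these are descriptions of likeness only.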

How the data were processed

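Each deposited count is a whole number of reads per gene. Per the file headers, featureCounts 1.6.2 assigned reads to exons by gene, with a read counted for each gene it overlaps and no strand option, and the headers give each gene's exon length in bases. Per the submitters' processing notes, reads were aligned to hg38 with STAR 2.7, and DESeq2 1.22 was used. Whether molecular identifiers were used is not known, so intervals and limits cover only the error of counting. In the comparison table deposited by the authors, each gene has a mean signal, a log2 fold change, the standard error of that change, a score (the test statistic) and p-values. Its direction is not stated. It was taken as knockdown over control because the log2 fold changes correlate with those of the fit (r = 0.999 across genes, which are not independent replicates).

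Genes were filtered with filterByExpr (minimum count 10) and scaled by TMM. Groups were compared with the two-sided quasi-likelihood test of edgeR 4.0.16 in R 4.3.3, without covariates, with Benjamini-Hochberg adjustment over all 14536 tested genes and a threshold of 0.05. SE is the size of the log2 fold change over the square root of F. Shares and sums were compared by a two-sided exact permutation test of the difference of means, which has 10 arrangements for 3 against 2 libraries. Shares per length used the exon bases on the main chromosomes. Alternatives were DESeq2 1.42.0, limma-voom (limma 3.58.1), library size only, RLE scaling, a filter of 5 CPM in at least 2 libraries, no filter, TERT and short RNA genes removed, GC offsets (a smooth with span 0.2), the replicate number as a block, and each library left out. Taking the fewest reads outside shared exons, and leaving the overlapping genes out of the sums, were added once the data had been seen. The fit was tested on simulated counts.

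The tubulin genes and the lists were chosen with earlier results of these data known. Beside the 10 genes, the text names up to 4 genes per list with the smallest edgeR p, the 5 other tubulin genes with the highest mean CPM and those without a count, genes whose exons overlap a tubulin gene, and the 3 genes nearest to each sum. A few genes and sequences that these rules name are not reported here. Genes named only as exon neighbours of list genes were named after their values were seen.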

Additional observations from a re-analysis of the deposited data

How the results depend on the processing

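For AKAP12 the log2 fold change passed the threshold at -1.09 with DESeq2, -0.98 with limma-voom, -0.996 with no filter, -1.06 with the stricter filter, -1.04 without TERT and short RNA genes and -1.16 with GC offsets. It missed the threshold with RLE scaling (edgeR adjusted p 0.0505), library size only (0.0716) and the replicate block (0.298). It also missed it with any 1 knockdown library left out (edgeR adjusted p 0.161 to 0.201). It ranged from -1.42 to -0.52 over the libraries left out in turn. The number of tubulin genes called higher was 2 with DESeq2, 0 with the replicate block and 0 to 6 over the libraries left out, and the number called lower was 0 with the block, 0 with the fewest reads outside shared exons and 0 to 2 over the libraries left out. The block fit takes nothing from knockdown library 3, which shares its number with no control. With the block, 3 of the 10 genes were higher and 1 lower at an unadjusted p under 0.05, and edgeR called 185 genes higher and 25 lower in all (1.44%). The labels do not say that equal numbers mark shared cultures, and the deviations of same-numbered libraries correlated at -0.053 and -0.0813, so the pairing is not shown. Over the libraries left out, TUBB2B ranged from -0.14 (without control 1) to 3.46. The other reversed fold change was 1.12 for TUBB4B with the fewest reads outside shared exons. Usage shares that reversed had these ranges in percentage points over the libraries left out: TUBA1A -1.87 to 0.0111, TUBA1B -3.04 to 3.55, TUBA1C -1.37 to 8.44, TUBB -5.31 to 8.4 and TUBB6 -10.1 to 3.15. The lowest came without control 1 for TUBA1C and TUBB6 and without control 2 for TUBA1A, TUBA1B and TUBB, and TUBA1B was -0.358 without knockdown library 3. TUBA1B was -0.166 per exon length, and with overlapping genes left out TUBA1B was -2.03 and TUBB -21.7. The cause was not tested. Of the related gene lists, DESeq2 called 7 nucleation genes and 5 modifying enzymes lower and 2 other tubulin genes higher, and the stricter filter called 5 modifying enzymes lower and 2 other tubulin genes higher. The other tubulin genes called higher were 0 with limma-voom, with GC offsets, with the replicate block and with any 1 knockdown library left out. They were 2 with library size only and without TERT and short RNA genes. Of 93 fold changes of single tubulin genes under the other alternatives, 89 kept their direction and side of the threshold, as did 35 of 50 with a library left out. Scaling by library size only shifted the median log2 fold change of all genes by 0.2016. With 2 controls that differ from each other, fold changes rest on which control is used, and shares and sums cannot reach an exact p below 0.1.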
